A study of Mus musculus with 12 samples.

Results

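Reads listed under precursor hairpins of microRNAs (miRNAs) are described here, for sorted mouse blood-cell populations and a fibroblast culture. The members are all rows whose miRNA name begins with mmu-mir- in the deposited hairpin tables. Each row is 1 sequence placed on 1 hairpin, with its length, its first base on the hairpin and its read count. There were 187469 such rows, of 396052 rows in the hairpin and mature tables together. They named 441 hairpins and held 2292711 reads of 98086 distinct sequences. Between 8.36% and 14.48% of a library's miRNA reads were listed this way in LSK, MPP, LMPP, ProB, DN1, DN2 and CD8SP, 14.7% in DN4, 9.89% in DP, 7.63% in DN3 and 5.95% in MEF.

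A miRNA is cut from a hairpin-shaped transcript. In the nucleus Drosha cuts the base of the stem and releases the precursor hairpin. In the cytoplasm Dicer removes the loop, and of the duplex that remains an Argonaute protein usually keeps 1 strand as the mature miRNA. The other strand (the passenger) and the loop are mostly degraded. The cuts are not fully precise and bases can be added to the 3′ end, so a miRNA exists as a set of length variants called isomiRs. The 5′ end sets the seed, the short stretch by which targets are found, and a shifted 5′ end therefore changes it. A read listed under a hairpin can be a length variant of a mature miRNA, a passenger strand, a loop, or RNA of another kind that resembles the hairpin.

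All cells came from C57BL/6 mice, with 1 library per population. The marrow libraries were LSK (Lineage- Sca+ cKit+), MPP (the same with CD135+ CD106+), LMPP (the same with CD135+ CD106-) and ProB (B220+ IgM- CD43hi). The thymus libraries were DN1 (CD4- CD8- CD3- CD90+, CD44+ CD25-), DN2 (CD44+ CD25+), DN3 (CD44- CD25+), DN4 (CD44- CD25-, CD3lo), DP (CD4+ CD8+, CD3lo) and CD8SP (CD8+ CD3hi CD24lo). MEF are embryonic fibroblasts of E14.5. A hairpin table of CD4SP, the other mature thymocyte population, was not used here. RNA of 19 to 24 nt was size-selected on a gel. Ligation of the adaptors took place where a molecule had a phosphate at its 5′ end and a hydroxyl at its 3′ end. With 1 library per population no difference has a replicate check and no test between populations was possible. Intervals are exact 95% intervals and cover counting error only, since PCR reads are not independent molecules. Reads of both tables together ran from 74856 in DN4 to 4984351 in DN3.

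The hairpins on which the results turn are printed below from RefSeq (GRCm38.p6), 5′ to 3′, with the annotated mature arms in capitals. They are shown because the bases just outside the capitals are those that the reads of the hairpin tables carry. RefSeq hairpins were usable for 247 of the 441 names and 87.6% of the reads.
mir-92a-1: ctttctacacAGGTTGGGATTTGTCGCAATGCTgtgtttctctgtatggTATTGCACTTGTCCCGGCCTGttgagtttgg
mir-26b: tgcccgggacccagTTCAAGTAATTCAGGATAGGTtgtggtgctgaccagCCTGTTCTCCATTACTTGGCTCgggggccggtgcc
mir-128-1: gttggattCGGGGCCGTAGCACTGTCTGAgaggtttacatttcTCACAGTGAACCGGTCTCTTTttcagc
mir-30e: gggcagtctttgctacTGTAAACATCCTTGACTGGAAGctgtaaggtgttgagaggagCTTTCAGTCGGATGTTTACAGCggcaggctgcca
mir-142: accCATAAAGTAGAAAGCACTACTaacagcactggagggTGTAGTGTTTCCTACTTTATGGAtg
mir-345: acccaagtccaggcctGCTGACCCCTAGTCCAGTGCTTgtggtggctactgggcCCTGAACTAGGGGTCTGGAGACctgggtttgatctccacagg
mir-16-1: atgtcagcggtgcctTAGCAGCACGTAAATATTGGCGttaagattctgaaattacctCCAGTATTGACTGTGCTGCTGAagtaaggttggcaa
mir-25: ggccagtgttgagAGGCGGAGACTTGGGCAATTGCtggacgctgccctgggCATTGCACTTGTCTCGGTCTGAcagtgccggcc

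mir-92a-1 lies at chr14:115044427-115044506 (plus strand) in an exon of the non-coding host gene Mir17hg, whose cluster is known for driving proliferation of lymphoid precursors. mir-26b lies at chr1:74394310-74394394 (plus strand) in an intron of Ctdsp1. mir-128-1 lies at chr1:128202361-128202430 (plus strand) in an intron of R3hdm1. mir-30e lies at chr4:120772606-120772697 (minus strand) in an intron of Nfyc. mir-142, the hairpin of a miRNA found across blood cells, lies at chr11:87756864-87756927 (plus strand) in an intron of Mir142hg. mir-345 lies at chr12:108836973-108837068 (plus strand) and overlaps an annotated exon of Slc25a47. mir-16-1 lies at chr14:61631880-61631972 (minus strand) and overlaps an annotated exon of the non-coding Dleu2. mir-25 lies at chr5:138165321-138165404 (minus strand) and overlaps an annotated exon of Mcm7, a DNA replication gene.

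Libraries differed in the base at which reads usually began, and this divides all that follows. The usual first base in the mature tables was base 3 of the miRNA for LSK, MPP, LMPP, ProB, DN1, DN2 and CD8SP (96.3% to 98.6% of reads). It was base 2 for DN4, DP and MEF (96.7% to 98.8%) and base 1 for DN3 (98.9%). The most frequent read length was 20 nt in the 7 base-3 libraries, 21 nt in MEF, and 22 nt in DN3, DN4 and DP, with 23 nt nearly as frequent in DN3. The step that set these starts is not given in the sources used here. Population and read start cannot be told apart, because DN3 is the only base-1 library and DN4, DP and MEF are the only base-2 ones.

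The order of libraries by their share of hairpin-table reads depended on mismatched reads. With perfect matches only, the share was 5.23% to 8.89% in the base-3 libraries, 4.22% in DN4, 1.95% in MEF, 1.86% in DN3 and 1.70% in DP. All 7 base-3 libraries were then above the other 4, and DN4 was no longer highest.

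**Figure D1:**
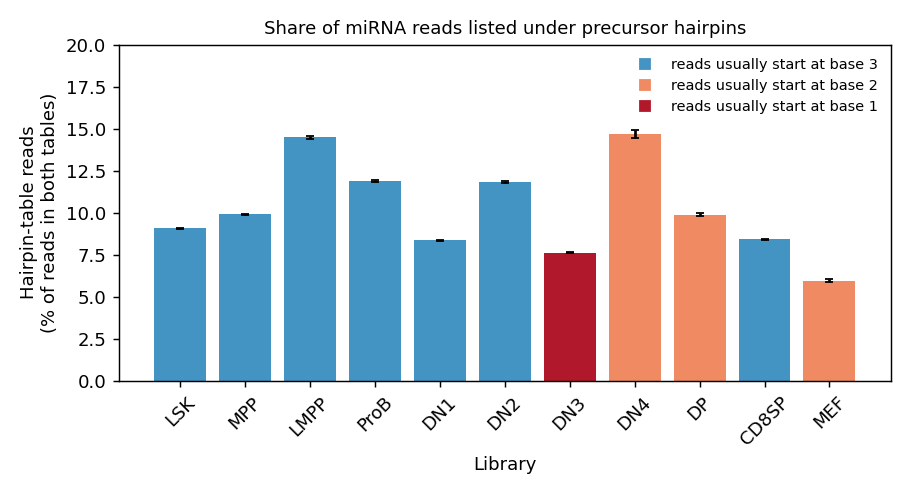
Reads listed under precursor hairpins as a percent of reads in both tables (y axis) for the 11 libraries (x axis), coloured by the base of the mature miRNA at which reads usually began; error bars are 95% Clopper-Pearson intervals and cover counting error only. DN4 (14.7%) and LMPP (14.48%) were highest and MEF (5.95%) was lowest; with perfect matches only DN2 (8.89%) was highest and DP (1.70%) lowest.

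A few hairpins led in most libraries. mir-92a-1 led in LSK (37.4% of hairpin-table reads), MPP (34.5%), LMPP (29.5%), ProB (31.5%), DN1 (19.4%), DN2 (35.7%) and CD8SP (18.03%). In MEF the leading hairpin, mir-320, held 7.41%. The mir-92a-1 level, in hairpin-table reads per 1000000 reads of both tables (RPM), was highest in LMPP (42671) and DN2 (42181), followed by ProB (37388), MPP (34140), LSK (33974), DN1 (16240) and CD8SP (15174). It was 8797 in DN4, 4408 in DN3, 928.6 in DP and 564.7 in MEF. The 7 base-3 libraries were all above the other 4. Such levels also depend on which table lists a read. Over both tables miR-92a was at 16946 RPM in CD8SP, 16699 in DN4 and 15827 in DN3. It was highest in DN2 (45494.5) and lowest in DP (2421) and MEF (847). These values pool both arms. The 5′ arm of mir-92a-1, its passenger strand, held 605 of the 1250 miR-92a reads in DN4 and 218 of 49689.5 in CD8SP. Fewer cells of a type and less RNA per cell cannot be told apart in these levels either. mir-26b had a median of 7268 RPM, from 210 in MEF to 14820 in DN1. mir-128-1, the hairpin of miR-128, which is best known from neurons and is also expressed in thymocytes, ran from 9.11 in MEF to 14870 in DN2.

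The miR-181 hairpins led in DP. miR-181a is known to set T cell receptor sensitivity in the thymus. mir-181a-1 and mir-181a-2 make the same mature sequence, so their reads were split between them. mir-181a-2 was at 24163 RPM in DP, 10665 in DN4 and 2557 in DN3, and at 262 to 801 in the other libraries. mir-181a-1 followed it, with 24114 in DP and 10171 in DN4. mir-181c was highest in DN4 (16890) and was at 9214 in DP. mir-142 led in DN3 (12.3% of hairpin-table reads, 9400 RPM) and was lowest in MEF (6.07 RPM). For 3 of these 10 hairpins of highest mean level the highest library changed under TMM factors, mir-92a-1 (to DN2), mir-181c (to DP) and mir-378 (to CD8SP), and for 4 under DESeq2 size factors, which added mir-142 (to CD8SP). Levels in DN4 changed most, by -1.85 on the log2 scale with TMM factors and -1.78 with DESeq2 size factors. mir-16-1, from the locus of the tumour suppressor miR-15 and miR-16 pair, was highest in CD8SP (7364) and lowest in MEF (7.59).

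mir-2142 stood apart in 1 library. It was at 25836 RPM in LMPP, where it made up 17.8% of hairpin-table reads, at 10787 in DN4, and at 72.0 to 1346 in the other 9. It belongs to a list of names that may stem from other structured RNA. That list (31 of 33 names with reads) summed to 33191 RPM in LMPP and 37808 in DN4, and to between 585 and 7249 elsewhere. In 9 names of the list with enough reads the median hairpin-table share was 88.7%.

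Nearly all placed reads lay on a mature arm. A read was placed by its middle base, over hairpins with a RefSeq sequence. The share on an arm that the mature tables also name was 97.7% to 99.1% in the base-3 libraries, 96.1% in DN3, 95.8% in DP, 88.0% in MEF and 77.2% in DN4. With positions from exact matches only, this share was lower in DN3 (85.4%), DP (84.7%), MEF (75.1%) and DN4 (55.0%). Arms known to RefSeq but not named in any mature table held 0.740% to 3.12% of reads in 9 libraries, 9.43% in MEF and 17.6% in DN4. The loop held 0.0366% to 0.0652% in the base-3 libraries, 0.437% in DN3, 1.09% in DP, 1.27% in MEF and 4.32% in DN4. A second arm that RefSeq does not annotate held up to 1.15% (MEF). Reads on the flanks outside both arms, and reads antisense to the hairpin, each stayed under 0.3% in all 11 libraries. DN4 and MEF thus had the most reads off the named arms. They are also the shallowest libraries, with 5675 and 13689 placed reads, and had 48.4% and 30.1% of reads on hairpins without a RefSeq sequence.

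Hairpin-table reads on a named arm mostly ran past the 3′ end of the mature miRNA, though with perfect matches only this did not hold in DN3. Reads that ran past the annotated 3′ end made up 90.8% to 95.8% in the base-3 libraries, 93.2% in DP, 89.6% in DN4, 86.2% in MEF and 81.6% in DN3. With perfect matches only this was 94.99% to 98.9% in the base-3 libraries, 80.2% in DN4, 75.8% in DP, 74.5% in MEF and 38.0% in DN3. In DN3 the larger part thus rested on mismatched reads, and 43.9% of its named-arm reads ran past the end with a mismatch. In the base-3 libraries 58.1% to 69.9% of reads ran past by exactly 1 base. In DN4 and MEF 2 bases were the most frequent overhang (42.5% and 42.9%), and in DP 3 bases (38.5%). Reads that began before the 5′ end made up 14.8% in DN3, 5.58% in DN4, 4.46% in DP, 2.12% in MEF and 0.265% to 2.70% in the base-3 libraries. Reads inside the arm with a mismatch made up 1.45% to 6.34%.

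**Figure D2:**
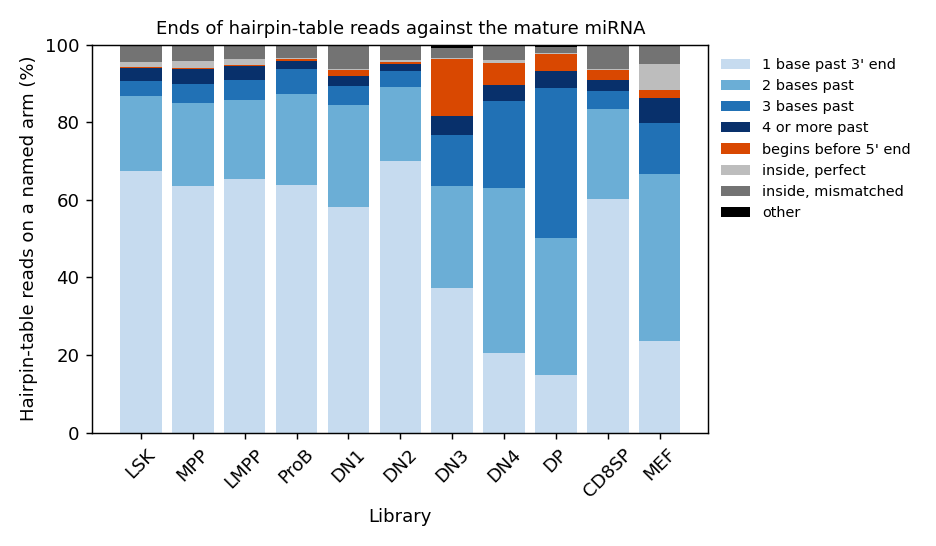
Ends of hairpin-table reads on a named arm against the annotated mature miRNA, as stacked percent of those reads (y axis) in each of 11 libraries (x axis). Reads 1 base past the 3′ end were the most frequent class in the base-3 libraries (58.1% to 69.9%) and in DN3 (37.4%), and reads that begin before the 5′ end reached 14.8% in DN3.

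The table that listed a 3′-extended read followed from how many bases of the read lay on the mature miRNA. Reads that matched a mature miRNA through to its 3′ end were sorted, over both tables, by the number of matched bases and the number of bases past the end. With 19 matched bases, 1 base past the end put all 729611 reads in the hairpin tables. With 20 matched bases, 0.0484% of 1760408 reads with 1 extra base were there, and 99.9995% of 182466 reads with 2. With 21 matched bases the step lay at the same place (0.384% at 1 base, 100% at 2). With 22 matched bases it lay between 2 and 3 bases (0.884% and 100%), and with 23 between 3 and 4 (2.63% and 100%).

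Of 1248002 reads past these limits 99.5% were in the hairpin tables, and of 10935760 reads within them 0.163% were. The limits were read off these same counts, so the percentages describe the step and do not test it. Reads with 19 matched bases and an overhang of 2 or 3 were the exception, with 95.8% and 88.5% in the hairpin tables.

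**Figure D3:**
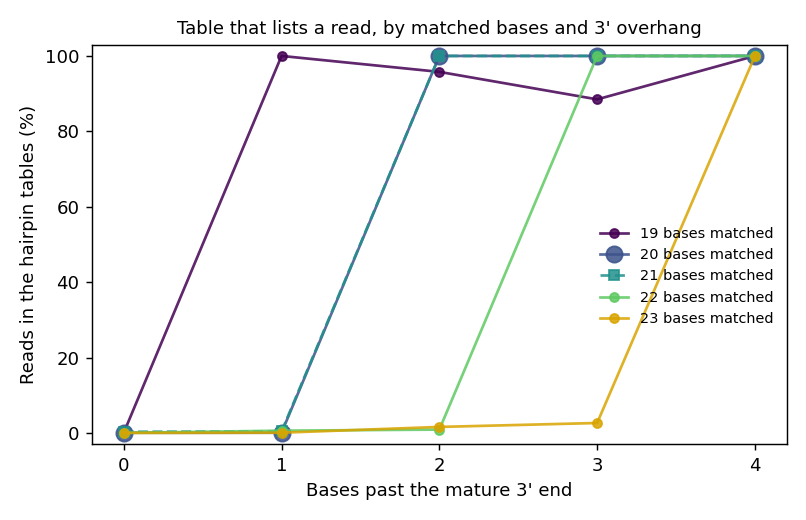
Percent of reads listed in the hairpin tables (y axis) against the number of bases past the mature 3′ end (x axis), 1 line per number of bases matched to the mature miRNA, pooled over 11 libraries. The lines for 20 and 21 matched bases coincide, stepping from under 0.4% at 1 base to 100% at 2 bases, and longer matches step later.

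With the same 3′ end, a read that begins further into the miRNA has fewer matched bases, and such reads were listed in different tables in different libraries. The reads below show this for miR-92a-3p with 1 extra base and for miR-30e-5p with 2, the bases past the annotated 3′ end being in capitals. They are the most direct view of the step.
miR-92a-3p in DN2: ttgcacttgtcccggcctgT
miR-92a-3p in DP: attgcacttgtcccggcctgT
miR-92a-3p in DN3: tattgcacttgtcccggcctgT
miR-30e-5p in DN2: taaacatccttgactggaagCT
miR-30e-5p in DP: gtaaacatccttgactggaagCT
miR-30e-5p in DN3: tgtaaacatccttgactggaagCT

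The miR-92a-3p read had 97013 counts in DN2, all in the hairpin table. The same 3′ end was in the mature tables alone in DP and DN3, with 45573 counts in DN3. For miR-26b-5p with 1 extra base the split was alike, with 16138 counts in the hairpin table of DN2 and 183 in DP and 7947 in DN3 in the mature tables. The miR-30e-5p read lay in the hairpin tables of DN2 (3647 counts) and DP (633 counts) and in the mature table of DN3 (18390 counts).

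miR-92a shares differed widely between libraries. The share of its reads in the hairpin table was 97.9% in MPP and ProB, 97.7% in LMPP, 97.6% in LSK and DN2, 96.9% in CD8SP and 96.8% in DN1. It was 31.3% in DN3 (30.96 to 31.6), 54.6% in DN4 (51.8 to 57.3), 42.1% in DP (39.5 to 44.7) and 67.0% in MEF (61.2 to 72.5). The base-3 libraries thus lay far above the rest. The 5′ arm of mir-92a-1 held 605 of the 682 miR-92a hairpin-table reads in DN4, 432 of 596 in DP and 166 of 187 in MEF. In DN3 it held 5107 of 24682. Over both tables, miR-92a-3p reads with a longer 3′ end made up between 93.6% (DN4) and 99.03% (MEF) in every library. The share thus also counts 5′ arm reads, while the 3′ end of miR-92a-3p alone moved little. The first added base was T, which the hairpin encodes, in 87.3% (DP) to 100% (MEF) of reads with 1 extra base.

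miR-128-3p, like miR-92a-3p 21 nt long, kept a longer 3′ end in 41.3% (LSK) to 66.5% (DP) of reads. Its share in the hairpin table was 43.3% to 64.7% in the base-3 libraries and 14.6% to 22.96% in DN3, DN4, DP and MEF, the last on 41 reads. Its first added base was T in 78.95% to 85.7% of reads with 1 extra base in the base-3 libraries and DN3. It was T in 48.3% in DN4 and 59.01% in DP, with A at 34.2% and 25.2%. miR-30e moved in another way, with its highest shares in the base-2 libraries (71.0% in DN4, 62.9% in DP and 78.2% in MEF), 29.7% to 56.3% in the base-3 libraries, and 22.9% in DN3. miR-30e-5p had a longer 3′ end in 83.2% (CD8SP) to 96.6% (ProB) of reads.

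**Figure D4:**
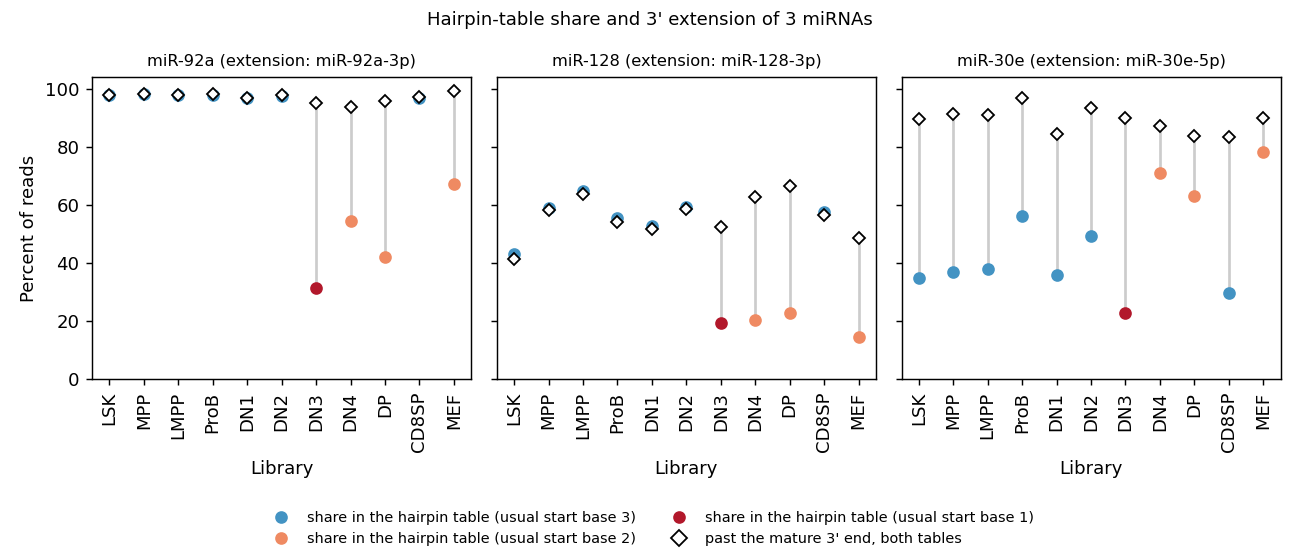
Share of miRNA reads in the hairpin table (filled circles, coloured by usual read start) and percent of the named mature arm's reads past its 3′ end over both tables (open diamonds), on the y axis in percent, for 11 libraries on the x axis. For miR-92a the diamonds stay between 93.6% and 99.03% while the circles run from 31.3% in DN3 to 97.9% in MPP. The circles count both arms and the diamonds the named arm alone.

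Shares were then compared for every miRNA number, that is a miRNA name with its arms and copies pooled. A number was called mostly in the hairpin table where it had at least 100 reads and the whole interval of its share lay above 50%. All numbers are members, so the percent called is also the background. Between 64 numbers (DN4) and 187 (DN3) could be tested. Called were 25 numbers in LSK (17.6%), 30 in MPP (20.8%), 39 in LMPP (25.5%) and 34 in ProB (23.9%). Of the thymus libraries, DN1 had 39 (22.9%), DN2 32 (22.2%), DN3 26 (13.9%), DN4 15 (23.4%), DP 21 (22.6%) and CD8SP 25 (17.2%). MEF had 24 (20.7%). DN3 had the lowest percent and LMPP the highest.

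Shares were spread widely over the numbers. Of the numbers with at least 100 reads in at least 6 libraries, 66 had a median share under 10% and 26 over 50%, and the median range between libraries was 10.2 percentage points. The highest medians were those of miR-2135 (99.5%), miR-2144 (98.5%), miR-2182 (97.2%), miR-92a (96.9%), miR-23a (96.0%), miR-2138 (95.9%), miR-23b (95.02%) and miR-466d (94.8%). miR-2135, miR-2138 and miR-2144 are on the list of names that may stem from other structured RNA. miR-23a and miR-23b come from paralogous clusters with miR-24 and miR-27, and miR-466d from the repeated cluster in Sfmbt2.

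Of the 8 widest ranges, 4 rested on DN3. miR-203, best known from skin, had 8.67% in DN3 and 71.8% to 87.1% in the 6 other libraries with enough reads. Its range of 78.4 points fell to 15.3 without DN3. Likewise the range fell from 73.7 to 5.99 points for miR-23a, from 65.7 to 6.76 for miR-669a and from 65.1 to 18.6 for miR-467e without DN3. miR-92a (66.7 points), miR-378 (66.9), miR-181c (66.5) and miR-188 (65.5) kept a range of at least 52.3 points when the library of the highest or the lowest share was left out. miR-378 was at 76.5% to 82.9% in the base-3 libraries and at 15.9% to 21.7% in DN3, DN4, DP and MEF. miR-181c was the reverse of it in part, with 67.5% in DN4, 54.8% in DP and 78.3% in MEF and 11.8% to 37.7% elsewhere.

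The 3′ ends were also set beside the length of the mature miRNA. The median percent of reads past the 3′ end was 58.2% over 15 mature miRNAs of 21 nt, 16.9% over 64 of 22 nt and 11.3% over 35 of 23 nt. miR-101b-3p, annotated at 19 nt, was past its end in 99.02% to 100% of reads. Within 1 length the spread was wide, and miRNAs of 22 nt had medians from 0% (miR-345-3p) to 89.8% (miR-30e-5p). In the miR-17 cluster and its paralogs, 12 of 13 members had enough reads and their median share was 2.05%, against 10.7% over all such numbers. Only miR-92a and miR-106b (22.1%) were above 10% among the 12. miR-20a (median 2.19%) and miR-17 (4.60%), which target cell-cycle inhibitors, stayed at or below 15.3% in every library with enough reads.

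The other families were spread as follows. The miR-30 family, 5 of 6 members measured, had a median share of 31.5%, led by miR-30e and with miR-30b at 1.48%. The miR-181 family (4 of 4) had 10.9%. The clusters of miR-23, miR-24 and miR-27 (5 of 5) had 19.3%, from 6.77% for miR-24 to 96.0% for miR-23a. miR-15, miR-16 and relatives (4 of 6) had 3.98%, and the mature lymphocyte list (8 of 8, with miR-142, miR-342 and miR-155 highest in level) 5.72%. The Sfmbt2 repeated cluster (7 of 39 members with enough reads, many sharing sequences) had 56.7%.

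Neighbouring stages were compared by the shares of their numbers, which no scaling of libraries affects. A number was called where it had at least 100 reads in both libraries, the intervals did not overlap, and the shares lay at least 20 percentage points apart. Where both libraries began at base 3 few calls were made. From LSK to MPP 1 number was higher (0.735% of those tested) and 0 lower (0%). From MPP to LMPP, and from DN1 to DN2, 0 were called in either direction (0%). From LMPP to DN1 1 of 139 was lower (0.719%) and 0 higher. From LMPP to ProB 3 were higher (2.38%) and 0 lower.

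The LMPP to ProB calls came with a longer 3′ end over both tables. ProB are B lineage precursors and LMPP the lymphoid-primed progenitors. miR-146b, a regulator of inflammatory signalling, had a share of 32.8% (29.3 to 36.4) in LMPP and 67.0% (62.2 to 71.4) in ProB, with 41.4% and 73.2% of its 5p reads past the 3′ end. miR-301a had 39.4% and 68.9%, with 41.2% and 69.0% past the 3′ end. miR-425 had 33.6% and 57.2%, with 39.95% and 64.9%. In these the share and the 3′ end moved by like amounts (medians of 29.5 and 27.8 points). miR-350, called lower from LMPP to DN1, went from 79.8% to 55.8%. An arm that no mature table names held 93 of its 95 hairpin-table reads in LMPP and 232 of 249 in DN1. miR-196a, called higher from LSK to MPP, went from 64.4% (57.5 to 71.3) to 86.5% (82.0 to 90.2).

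Comparisons between libraries of different read start held most calls. From DN2 to DN3, 32 of 140 numbers were lower (22.9%) and 5 higher (3.57%). For the 17 of the 32 with 3′-end data the median share differed by -40.6 points and the median percent past the 3′ end by -10.6 points, and in 12 of 17 the 3′ end moved by less than 20 points. The largest differences were those of miR-374 (79.3% to 6.94%), miR-363 (93.4% to 21.1%), miR-23a (97.3% to 26.3%) and miR-92a. For miR-23a-3p the 3′ end moved too, from 90.7% to 57.4% past it. Higher in DN3 were miR-1983 (28.8% to 80.9%), miR-1939 (58.1% to 98.8%), miR-345 (3.43% to 40.9%) and miR-466c (6.18% to 31.8%).

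From DN3 to DN4, 7 of 64 were higher (10.9%) and 1 lower (1.56%). Among them miR-30e went from 22.9% to 71.0%, miR-181c from 20.5% to 67.5%, miR-1937b from 30.7% to 70.0% and miR-30d from 19.8% to 58.7%, and miR-142 was lower, with 30.3% and 5.24%. From DN4 to DP, both base-2 libraries, 1 of 64 was lower (1.56%), miR-25 with 41.7% and 21.5%, and 0 were higher. An arm that no mature table names held 167 of the 180 miR-25 hairpin-table reads in DN4 and 280 of 328 in DP. From DP to CD8SP, 8 of 76 were higher (10.5%) and 8 lower (10.5%). Higher were miR-378 (18.7% to 80.6%), miR-92a (42.1% to 96.9%), miR-188 (44.0% to 90.3%) and miR-101b (4.88% to 43.8%). Lower were miR-181c, miR-30e, miR-350 and miR-30d, by between -25.4 and -43.0 points. For 7 of the 8 that were higher the share differed by a median of 34.7 points and the percent past the 3′ end by 1.26 points.

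Beside table shares, some 3′ ends themselves differed between libraries, and these too moved with the read start. miR-181a-5p reads past the 3′ end made up 1.79% in CD8SP, 4.54% in LSK, 5.37% in MPP, 7.13% in LMPP, 7.47% in DN1, 11.3% in DN2 and 14.6% in ProB. They made up 31.3% in DN3, 48.1% in DP, 53.7% in DN4 and 71.2% in MEF. The base-3 libraries were all below the other 4, and the part of the read start in this was not tested. Its share in the hairpin table stayed at 1.05% to 15.4%. miR-26b-5p with 2 or more extra bases made up 11.7% to 15.4% in the base-3 libraries, 32.6% in DN3 and 54.3% to 68.5% in DN4, DP and MEF, on fewer than 100 reads each in DN4 and MEF.

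miR-451a, the red-cell miRNA cut by Argonaute 2 in place of Dicer, carries its mature sequence across the loop. Its reads were past the annotated 3′ end in 61.0% (DN2) to 83.2% (ProB) in the 8 libraries with enough reads, and with 1 extra base that base was T in 99.04% to 99.6%. Of the hairpin-table reads of mir-451 99.2% to 99.8% ran past the 3′ end, and its share in the hairpin table was 17.8% to 25.5% in the libraries of at least 100 reads.

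Among hairpin-table reads, tails of bases that the hairpin does not encode differed between libraries. Of reads on a named arm with such a tail, tails of T only made up 75.1% in DP and 34.1% to 52.5% in the other libraries except MEF, where they made up 20.6%. Tails of A only made up 46.6% in MEF, 10.6% in DP and 19.6% to 32.3% elsewhere. MEF and DP were thus at opposite ends for both bases. In DP mir-181a-1 and mir-181a-2 each held 24.4% of hairpin-table reads, and their part in its T tails was not tested. Added bases also differed between miRNAs. Over both tables, miR-203-3p reads with 1 extra base had T in 86.5% (DN2) to 97.0% (CD8SP), though the hairpin encodes A. For miR-142a-3p, where it encodes T, that base was A in 50.4% (DN3) to 100% (MEF, 42 reads). The part of miRNA content in the library differences was not tested.

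Except in MEF, where mir-142 had 2 hairpin-table reads, reads that began before the annotated 5′ end were chiefly those of miR-142a-5p. Its reads below are those most frequent with an upstream start, the bases before the annotated 5′ end in capitals, and a DN1 read that begins upstream of that library's usual base 3 and yet inside the annotated miRNA.
miR-142a-5p in DN3, hairpin table: CCcataaagtagaaagcactac
miR-142a-5p in DP, hairpin table: Ccataaagtagaaagcact
miR-142a-5p in DP, mature table: Ccataaagtagaaagcactac
miR-142a-5p in DN1, mature table: cataaagtagaaagcacta

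Their counts were 16571, 589, 2793 and 29972. Over both tables, miR-142a-5p reads that began upstream of the library's usual start made up 78.1% in LSK, 72.0% in MPP, 70.1% in DP, 68.1% in LMPP, 59.4% in DN4, 58.2% in DN2, 55.1% in ProB, 53.0% in DN1, 51.7% in CD8SP and 39.0% in DN3. Most lay exactly 2 bases upstream, from 35.9% of all reads in DN3 to 74.4% in LSK, with 43.9% in DN4. The upstream form was thus the larger in 9 of 10 libraries, with DN3 the exception and the 3 lineage-negative marrow libraries among the 4 highest. MEF had too few reads.

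The tables hid this form in most libraries. Of the upstream reads 99.7% were in the hairpin table in DN3, 40.5% in DN4, 35.5% in DP and 4.37% to 6.44% in the base-3 libraries, where they begin at base 1 of the annotated miRNA and were listed under it. Of mir-142 reads, those that begin before the 5′ end made up 79.6% of hairpin-table reads in DN3, 78.0% in DP, 72.4% in DN4 and 24.2% to 41.0% in the base-3 libraries.

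**Figure D5:**
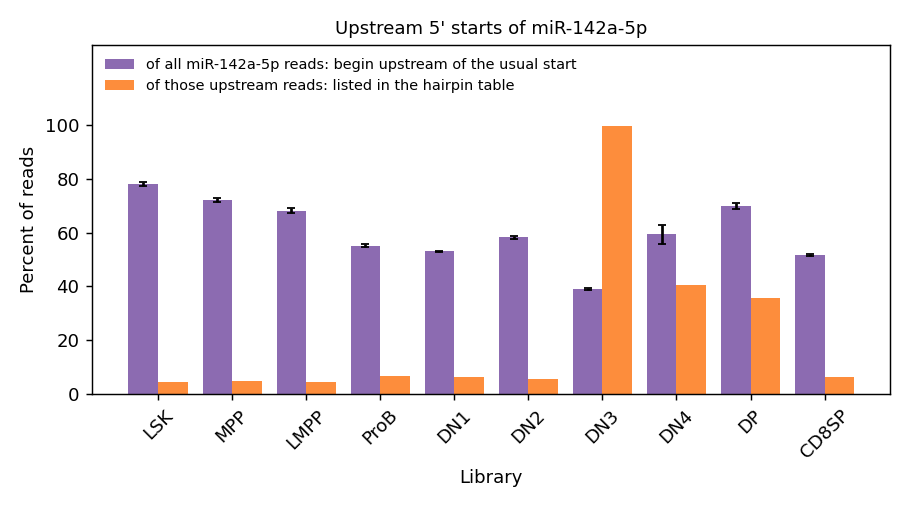
miR-142a-5p reads that begin upstream of the library's usual start, as percent of all its reads over both tables (purple, with 95% Clopper-Pearson intervals for counting error), and percent of those upstream reads listed in the hairpin table (orange), for the 10 libraries with at least 100 reads. Upstream starts ran from 39.0% (DN3) to 78.1% (LSK), and the orange bars from 4.37% (LSK) to 99.7% (DN3).

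Few other miRNAs began upstream. Of 111 mature miRNAs with at least 100 reads in at least 6 libraries, 96 had a median of upstream starts under 5%, and 4 had one over 50%. Those were miR-425-3p (92.8%), miR-345-5p (87.6%), miR-345-3p (78.3%) and miR-142a-5p (58.8%). miR-345-5p, 1 base upstream in 78.2% to 92.4% of reads, was in the hairpin table in 48.8% of these reads in DN3 and in 0.446% to 4.81% in the 7 base-3 libraries. These matures were picked for their medians, so the values are a description.

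Passenger strands without a name in the mature tables were found only through the hairpin tables. The 5′ arm of mir-92a-1 (miR-92a-1-5p) was at 74.3 RPM in CD8SP, 134.1 in DN1, 421 in LSK, 504 in MEF, 537 in DN2, 633 in MPP, 640 in ProB, 738 in DP, 739 in LMPP, 1025 in DN3 and 8082 in DN4. DN4 was highest, on 605 reads. With TMM factors it was at 2247 and DN3 at 1340, and with DESeq2 size factors at 2354 and 1015. This arm made up 91.9% of the mir-92a-1 reads in the hairpin table of DN4, 89.2% in MEF, 79.5% in DP, 23.2% in DN3 and 0.490% to 1.85% in the base-3 libraries. The miR-92a share in DN4, DP and MEF was therefore mostly another strand of the same hairpin than in the base-3 libraries.

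The 5′ arm of mir-25 was likewise highest in DN4 (2231 RPM, 167 reads), with 478 in DP and 58.4 to 279 in the other 9 libraries. With TMM factors DN4 was at 620 and DP at 517, and with DESeq2 size factors at 649.9 and 453.4. That of mir-23a was highest in MEF (1026 RPM, 338 reads), with 427 in DN4 on 32 reads and 42.5 to 162 elsewhere. The second arm of mir-223, a myeloid hairpin, was at 95.4 RPM in LSK, 180 in MPP, 189 in LMPP and 177 in DN1, and at 0 to 6.07 in the other 7. In LSK, MPP and LMPP a second arm of mir-222 that RefSeq does not annotate was at 136.3 to 227 RPM, and at 0 to 35.9 elsewhere. A count of 0 allows up to 40.1 RPM in DN4 and 0.602 in DN3.

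Loop reads were rare and came from few hairpins. Pooled over the libraries, mir-690 held 39.2% of all loop reads, mir-142 24.5%, mir-16-1 14.8% and mir-30e 7.44%. In DN4, DP and MEF most loop reads were those of mir-690. mir-690 is on the list of names that may stem from other structured RNA, and 89.9% to 100% of its reads fell outside its annotated arm on the loop side. It was at 2525 RPM in DN4, 577 in DP and 383 in MEF, and at 11.3 to 45.6 in the other 8. The most frequent loop reads of the other hairpins, printed here, began within 3 bases of the usual end of the 5′ arm. All bases lie outside an annotated arm except the last 3 of both mir-142 reads and the first of its DN3 read.
mir-16-1 loop in DN3: ttaagattctgaaattacct
mir-16-1 loop in DN2: aagattctgaaattacct
mir-142 loop in DN3: taacagcactggagggtgt
mir-142 loop in DP: aacagcactggagggtgt
mir-30e loop in DN3: gtaaggtgttgagaggag

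The mir-16-1 loop of DN3 ran from base 38 to 57 of the hairpin, which is the whole stretch between the 2 arms (miR-16-5p ends at 37 and the 3′ arm begins at 58). It had 187 reads in DN3. In the 6 base-3 libraries with at least 10 reads the loop began at base 40, in 98 reads in ProB, 60 in DN2, 51 in DN1, 31 in CD8SP, 18 in MPP and 13 in LSK. For mir-16-1 the shift of 2 bases equals that of the usual read start. Other loops did not shift by 2. The mir-34a loop began at base 44 in ProB and 43 in DN3, and the mir-142 loop most often at base 24 in ProB and DN2, and at 28 in DN1 and CD8SP. mir-142 loop reads began at base 24 in DN3 (549 reads) and at base 25 in DN4 (35 reads, 100% of them) and DP (92%), and were at most 17 in each base-3 library. The mir-30e loop was found in DN3 (233 reads, from base 41), with 1 read in MPP and 0 in the other 9 libraries. Of the mir-30e loop reads 91.4% were 18 nt long, the shortest length that any table lists. The part of read start and of this length limit in the difference between libraries was not tested. In DN3 the usual 3′ end of miR-30e-5p lay at base 40, directly before the mir-30e loop reads.

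Levels of cell-type lists were checked against the labels. miR-142 was at 154.8 RPM over both tables in MEF and at 7978 to 80435 in the blood libraries. Hairpin-table reads of the Dlk1-Dio3 locus (33 of 36 names with reads), a cluster known from embryonic and mesenchymal tissue, summed to 11649 RPM in MEF and to 0 to 97.4 elsewhere. Those of the mesenchymal list (8 of 8 names with reads) summed to 3628 RPM in MEF and 13.4 to 513 elsewhere. Its members miR-143 (1740 RPM) and miR-31 (1017 RPM) were highest in MEF. Its member miR-322 was not, with 12.1 RPM in MEF and 0 (DN4) to 199.8 (MPP) elsewhere. Over both tables miR-322 was at 370 RPM in MEF and 157 (DP) to 11248 (MPP) elsewhere. Hairpin-table reads of the muscle list (3 of 4) summed to 249 RPM in LMPP and 1.53 to 70.1 elsewhere. Those of the erythroid list (3 of 3) summed to 978 in DN3, 894 in LMPP and 1.71 to 441 elsewhere. In DN3 miR-451 held 4730 of these reads, miR-144 112 and miR-486 35. miR-486 went the other way, with 291 hairpin-table reads in LSK and 97 in LMPP. Over both tables miR-451 alone was at 4856 RPM in DN3, 3696 in LMPP and 3.04 to 1256 elsewhere. Hairpin-table reads of the liver miRNA miR-122 were at 79.5 RPM in LMPP and 0 to 24.2 elsewhere. They were a small part of its reads, 92 of 4315 over both tables in LMPP. Over both tables miR-122 had 2377 reads in MPP, 2121 in LSK and 1 to 76 in each of the others. The part of other cells in any result was not tested.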

How the data were processed

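Small RNA was sequenced from 12 populations, of which 11 had a hairpin table here. Per the file headers, the deposited tables list for each sequence a miRNA name, its length and position in bases, and its raw read count. How adaptors were trimmed, which aligner and miRNA release served and how many mismatches passed is not given in the sources used here. The CD8SP tables were taken by the names they hold, which were the reverse of their labels. The members, lists and rules were chosen with earlier results of these data known.

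A sequence with several names was split equally among them. Hairpins and mature arms came from RefSeq (GRCm38.p6). Dropped were 54 hairpins with no perfect read at the deposited position, or with more perfect reads at another position. Arms of 15 hairpins were placed from the mature tables. Shares have Clopper-Pearson intervals and levels are reads per 1000000 reads of both tables. A count of 0 stands for up to 3 counts. Named miRNAs were the 10 hairpins of highest mean level, the 8 numbers of highest median share, the 8 of widest range, the 6 hairpins with most reads off the arms, up to 4 calls per direction in each comparison and up to 3 members of a list. Others (miR-425-3p, miR-345-3p, the second arms, and the members of families) were chosen after their values were seen. Place and share rules were tested on simulated data. Python 3.11.15, numpy 2.4.6, scipy 1.17.1, pandas 2.3.3, matplotlib 3.10.9, R 4.3.3, edgeR 4.0.16 and DESeq2 1.42.0 were used, the last 2 for scaling factors only.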

Additional observations from a re-analysis of the deposited data

Results flagged for a closer look

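Rows named let-7 in the hairpin tables, which the comparisons above do not use, held 182711 reads over the 11 libraries, from 473 in DN4 to 31268 in DN3. They were flagged as a signal in data outside the main measurement.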

How the results depend on the processing

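The median share of reads in the hairpin tables (9.89%) became 47.2% by distinct sequences, 9.30% without sequences seen once, 5.87% without mir-92a-1, mir-26b and mir-128-1 and 5.24% with perfect matches only, where the highest library changed from DN4 to DN2 and the lowest from MEF to DP. The median on a named arm (97.7%) became 97.1% by first base, 97.5% with 1 hairpin only, 96.8% with positions from exact matches and 93.3% by distinct sequences. Single libraries moved further. With positions from exact matches DN4 fell to 55.0%, MEF to 75.1%, DP to 84.7% and DN3 to 85.4%. By first base DN3 fell to 82.6%, and with 1 hairpin only DN4 fell to 67.9%. By distinct sequences DN4 rose to 83.6% and MEF to 90.2%. The median past the 3′ end (93.2%) became 96.2% with perfect matches (DN3 38.0%, from 81.6%), 87.3% without those 3 hairpins and 93.6% without DN4 and CD8SP, an alternative chosen after seeing the data that left the other medians as they were.

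The 67 calls between neighbouring stages became 28 at 40 points and 22 when libraries were thinned to the shallowest, where fewer numbers were tested (DN2 to DN3 41 in place of 140). At 40 points DN2 to DN3 had 22 calls, DN3 to DN4 2, DP to CD8SP 4 and the other pairs 0. Thinned, DN2 to DN3 had 8, DP to CD8SP 8, and LSK to MPP, LMPP to ProB, LMPP to DN1 and DN4 to DP 0. A minimum of 30 reads gave 14 from DN3 to DN4 and 1 from DN1 to DN2. Sequences of 1 number only gave 0 from LSK to MPP, and leaving out those seen once gave 2 there and 1 from DN1 to DN2.

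The median range (10.2 points) became 5.88 without the library of the highest share and 7.87 without that of the lowest. The mean level of mir-92a-1 (21497 RPM) became 25351 with TMM factors, 24569 with DESeq2 size factors and 24447 per 1000000 mature reads. The scaled levels of the second arms of mir-92a-1 and mir-25 were added after seeing the data. TMM factors changed log2 levels by -1.85 in DN4 and -0.97 in MEF. Of named share differences 1 of 11 left after thinning was lost, and no direction reversed. No paired analysis was possible because each population had 1 library. DN4 and MEF are limited by depth. The cause of these changes was not tested.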
